A study of Mus musculus with 109 samples.

Results

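The Rab GTPases of mouse microglia, the small switch proteins that direct vesicle traffic, were followed through a systemic lipopolysaccharide (LPS) challenge and through the loss of the interleukin-10 receptor, alone or together with tumour necrosis factor. Members were all genes whose symbol is Rab followed by a number and at most 1 letter and further digits, so that relatives such as Rabl or Rap genes and the Rab-regulating proteins stayed out. The rule gave 48 genes of the 13902 listed in any of the 4 deposited expression tables, and 42 of the 48 were listed in all 4. Rab6b and Rab39 fell and Rab20, Rab32 and Rab5c rose within hours of LPS in 2 control lines. At 48 h microglia without the receptor had lower Rab32 and Rab24 and higher Rab21, Rab34 and Rab31 than the first control line. These calls held whichever library was left out, though only 3 of the 5 mutant libraries set the fold changes. A lower Rab27a depended there on 1 mutant library. Against the second control line, where the other mutant libraries count, Rab27a was kept in every repeat and Rab31 was not. No Rab gene passed the test between the double mutant and its own control at any time, where 0.0169 to 0.0678% of all genes did, so that a count of 0 is near the background.

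Microglia were sorted from brain by CD45 and CD11b, and their RNA was read with MARS-seq, a method that counts tags from the 3′ ends of transcripts. LPS, a bacterial wall component sensed by Toll-like receptor 4, was given once into the peritoneum at 2.5 mg per kg. The control line was IL10Rafl/fl, with floxed Il10ra and no Cre, and supplied 6 untreated libraries, 6 at 6 h, 4 at 24 h, 6 at 48 h and 4 at day 7. The Il10ra mutant was CX3CR1-CreER:IL10Rafl/fl, in which Cre is driven from Cx3cr1, a gene of microglia and other myeloid cells, and supplied 9 untreated libraries, 7 at 6 h, 5 at 24 h and 5 at 48 h. The doubly floxed control, IL10Rafl/fl:TNFfl/fl without Cre, supplied 6, 5 and 6 libraries untreated, at 6 h and at 48 h, and the double mutant, CX3CR1-CreER:IL10Rafl/fl:TNFfl/fl, supplied 5, 6 and 4. A further 4 untreated libraries of C57BL/6 mice, an experiment of their own, enter no comparison and are given with the closing observations. All groups in these comparisons therefore carry floxed Il10ra, and the sources used here state no age for the animals. Nothing in the labels says how far libraries of a group came from separate animals, so the p-values measure the spread between these libraries, which may in part be technical.

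Rab proteins cycle between an inactive GDP-bound form and an active GTP-bound form, and a prenyl tail anchors them to the membrane of 1 organelle or transport step. Exchange factors load GTP, GTPase-activating proteins end the signal, GDP dissociation inhibitors lift the inactive protein off the membrane, and effectors that bind the active form tether, move or fuse vesicles. Rab1 and Rab2 act between endoplasmic reticulum and Golgi, Rab6 and Rab33 at the Golgi, Rab5 and its relatives on early endosomes, Rab4 and Rab11 in recycling, Rab7, Rab9, Rab32 and Rab39 on late endosomes, phagosomes and lysosome-related organelles, and Rab3, Rab27 and Rab37 in regulated secretion. In microglia and macrophages these steps carry phagocytosed material to lysosomes and cytokines and receptors to and from the surface.

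Promoter sequences are shown for 4 of the members that the 48 h comparisons turn on and whose gene overlaps no other annotated gene. These are Rab32 and Rab27a, which were lower in the Il10ra mutant, and Rab34 and Rab31, which were higher. Overlap of the windows themselves was not tested, and Rab21 and Rab24, which also overlap no other gene, are not printed. Each is the 250 bases before a transcription start in RefSeq (GRCm38.p6), read 5′ to 3′ on the gene's strand: chr10:10558208-10558457 on the minus strand for Rab32, chr9:73044560-73044809 on the plus strand for Rab27a, chr11:78188177-78188426 on the plus strand for Rab34 and chr17:65772753-65773002 on the minus strand for Rab31. Capitals mark matches to any of 6 motifs searched on both strands.
Rab32: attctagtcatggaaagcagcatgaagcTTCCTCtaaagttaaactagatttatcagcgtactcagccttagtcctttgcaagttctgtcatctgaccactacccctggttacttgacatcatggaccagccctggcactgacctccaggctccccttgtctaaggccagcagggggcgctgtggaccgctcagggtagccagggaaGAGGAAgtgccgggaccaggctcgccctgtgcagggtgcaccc
Rab27a: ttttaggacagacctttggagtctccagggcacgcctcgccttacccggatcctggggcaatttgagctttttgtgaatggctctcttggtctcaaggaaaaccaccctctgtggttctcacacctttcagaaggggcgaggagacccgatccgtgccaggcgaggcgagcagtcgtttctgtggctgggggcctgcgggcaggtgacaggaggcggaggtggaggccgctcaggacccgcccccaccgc
Rab34: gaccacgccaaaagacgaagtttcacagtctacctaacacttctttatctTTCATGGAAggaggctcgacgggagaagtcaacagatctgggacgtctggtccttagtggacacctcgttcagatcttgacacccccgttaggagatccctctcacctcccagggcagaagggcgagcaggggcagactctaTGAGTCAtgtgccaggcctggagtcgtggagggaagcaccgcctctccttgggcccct
Rab31: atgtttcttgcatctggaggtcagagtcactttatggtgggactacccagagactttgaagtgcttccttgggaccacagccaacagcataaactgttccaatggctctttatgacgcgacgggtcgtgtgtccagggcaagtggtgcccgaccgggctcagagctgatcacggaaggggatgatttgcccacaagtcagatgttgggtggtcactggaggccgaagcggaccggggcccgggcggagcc
The motifs were kappaB (GGANTTNCC), ISRE (GAAANNGAA), GAS (TTCNNNGAA), AP-1 (TGANTCA), E-box (CACGTG) and the PU.1 core (GAGGAA). Rab32 holds 2 PU.1 cores, 222 to 217 and 43 to 38 bases before the start, the first on the opposite strand. Rab34 holds a GAS match 200 to 192 bases and an AP-1 match 58 to 52 bases before the start, and the printed windows of Rab27a and Rab31 hold none of the 6. Rab27a and Rab34 each have 2 starts in the table and the first is printed: the other Rab27a window, chr9:73063898-73064147, holds an E-box 246 to 241 bases before its start, and the other Rab34 window, chr11:78188498-78188747, holds none of the 6. The matches in the printed windows do not overlap each other. Of the 48 members, 41 were found in the promoter table, with 53 start sites. The kappaB letters stood in 0 of these 53 windows and in 3.15% of all 32851 windows in the table, the PU.1 core in 15.1% against 23.3%, and GAS in 9.43% against 7.02%. These are matches of letters in 1 window, not sites shown to be bound.

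The libraries held 540642 to 2489084 reads in genes, and the Rab genes together took 0.24 to 0.37% of them. Values below are normalised read counts as the authors deposited them, which are not scaled to gene length, so levels are compared between libraries and not between genes. The microglial genes Tmem119 and P2ry12 were present in every group, P2ry12 at 3858 to 5191 in untreated control libraries and at 412 to 730 at 6 h. The summed level of 14 microglia markers moved with LPS too: it was 47581 to 50499 untreated, 23940 to 28188 at 6 h, 18938 to 29415 at 24 h, 29815 to 37619 at 48 h and 46157 to 51509 at day 7. In such bulk samples, fewer cells of a type and less RNA per cell cannot be told apart. Of 48 members, 22 overlap another RefSeq gene, such as Rab6b with Gm46128, Rab20 with E230013L22Rik and Rab37 with Cd300lf, and if the counting did not use strand, which the sources used here do not state, reads of such pairs cannot be told apart. In 4 libraries (untreated control 1, control at 6 h 1 and 3, and untreated double mutant 1) mitochondrial genes took under 0.3% of the reads.

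Most of the Rab family was expressed at a level that could be tested. Genes entered the test if they reached 5 in a number of libraries no smaller than the smallest group: 40 of 46 listed members did so in the control table, 42 of 46 in the mutant table and 43 of 48 in the double-mutant table. Across all 16 comparisons 30 of 44 tested members (68.2%) passed the test at least once, beside 72.1% of all 12180 genes tested (limma on log2(value + 1), Benjamini-Hochberg adjusted p below 0.05 over all genes of the table), 14 were tested and never passed, and 4 (Rab15, Rab25, Rab36 and Rab4b) were too low to test. The members that never passed include the general carriers of several routes. Rab7, the late endosome switch, ranged from −0.30 to 0.41 in log2 fold change over the comparisons, with a lowest adjusted p of 0.065 in limma. Rab1a of the endoplasmic reticulum to Golgi step ranged from −0.31 to 0.22, Rab14 of endosome to Golgi traffic from −0.49 to 0.27, Rab6a, the close relative of Rab6b, from −0.46 to 0.35, and Rab18 of the endoplasmic reticulum and lipid droplets from −0.46 to 0.29. The other 9 were Rab2b, Rab4a, Rab5a, Rab8a, Rab10, Rab11b, Rab19, Rab23 and Rab43. Some of these ranged more widely. Rab8a went from −1.35 to 1.37, Rab2b from −1.24 to 0.55 (lowest limma adjusted p = 0.0574) and Rab23 from −1.02 to 0.47 (0.0591).

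**Figure D1:**
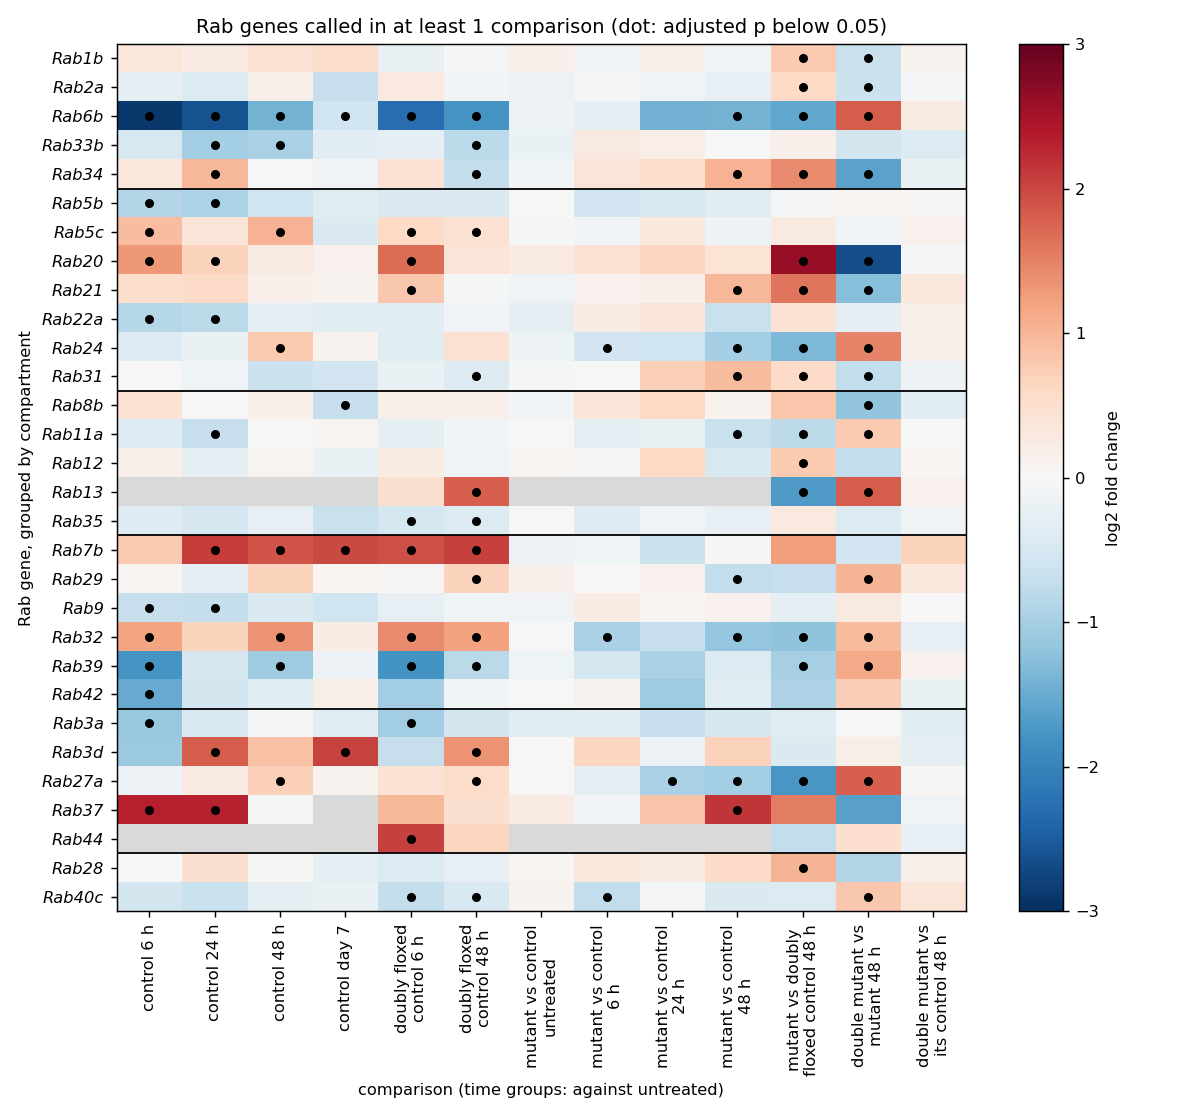
Log2 fold change of the 30 Rab genes that passed the test at least once (rows) in 13 comparisons (columns), from blue (lower) to red (higher); dots mark genes past the threshold and gray cells genes not tested. Rab6b is lower in every comparison of LPS with untreated libraries, and the Il10ra mutant columns at 48 h and the column of the double mutant against the Il10ra mutant carry opposite colours for Rab21, Rab34, Rab24, Rab27a and Rab32, with the Il10ra mutant libraries shared between these columns and entering with opposite sign.

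At 6 h after LPS, 11 of 40 Rab genes (27.5%) had changed in control microglia, beside 40.2% of all 10932 genes tested. Rab6b, Rab39, Rab42, Rab3a, Rab5b, Rab22a and Rab9 fell, and Rab5c, Rab32, Rab20 and Rab37 rose. The median log2 fold change was −0.16 over the members and −0.05 over all genes. The change was spread over compartments: 2 of 7 early endosome Rabs rose and 2 fell, 1 of 7 late endosome and lysosome-related Rabs rose and 3 fell, 1 of 10 endoplasmic reticulum and Golgi Rabs fell, 1 of 4 secretory Rabs rose and 1 fell, and 0 of 9 recycling Rabs passed.

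Rab6b, a Golgi Rab of retrograde transport to the endoplasmic reticulum that is otherwise known from neurons, gave the largest fall. Its untreated values were 110, 121.8 and 129 (lowest, median and highest of 6 libraries) and its values at 6 h were 10.1, 15.3 and 35.6. The groups lay far apart, with a log2 fold change of −2.90 ± 0.34 (SE, limma, adjusted p = 2.95e-07). Rab39, a late endosome and phagosome Rab, went from 25.3, 36.3 and 37.8 to 6.29, 8.48 and 9.79, again without overlap (−1.78 ± 0.35, limma adjusted p = 0.000262). Rab3a, which docks secretory vesicles and is best known from synapses, was at 19.1, 31.4 and 42.3 untreated and at 6.29, 11.7 and 31.9 at 6 h. These ranges overlapped, and the fall of 1.13 on the log2 scale (SE 0.35, limma adjusted p = 0.0129) rested in part on single libraries: without untreated library 3 it was −1.04 with an adjusted p of 0.0518.

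Among the genes that rose, Rab20, a Rab of phagosome maturation, went from 56.6, 62.4 and 74.7 to 110, 142.4 and 223. Each library at 6 h was above each untreated one (1.31 ± 0.21, limma adjusted p = 1.96e-05). Rab32, which directs traffic to lysosome-related organelles and to vacuoles that hold bacteria, went from 90.1, 120 and 123.6 to 210, 285 and 371 (1.19 ± 0.27, limma adjusted p = 0.00103). Rab5c, a Rab of early endosome fusion, went from 139, 186 and 257 to 301, 393 and 526 (0.93 ± 0.21, limma adjusted p = 0.00123). Neither of these pairs of ranges overlapped. Rab37, a secretory granule Rab, passed at a level near the floor, with 0 to 2.35 untreated and 0 to 8.96 at 6 h.

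Of the 11 calls 5, those of Rab6b, Rab39, Rab20, Rab32 and Rab5c, were kept with each library left out in turn and under all 8 alternative settings. With the experiment term, the comparison rests mainly on 3 untreated and 3 treated libraries of 1 experiment. The other 3 untreated libraries do not enter these fold changes, so leaving those out tests little. Of the libraries it rests on, untreated library 1 and 6 h libraries 1 and 3 had under 0.3% mitochondrial reads, and 1 of the alternatives leaves these out. The calls of Rab9 (−0.62, limma adjusted p = 0.112 without untreated library 2), Rab42 (−1.18, 0.145 without untreated library 2) and Rab22a (−0.64, 0.103 without untreated library 1) were lost with a single library. In the same comparison 11 of 14 microglia markers were lower. Of 6 monocyte markers 4 were higher and 1 lower, with sums of 72.7 to 232 against 18 to 43.7. Of 7 neutrophil markers 1 was higher, as was 1 of 6 border macrophage markers. The part of these genes in the Rab changes was not tested.

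The doubly floxed control line, whose libraries are all different ones, gave a second measurement of 6 h. Here 11 of 43 Rab genes (25.6%) passed, beside 42.7% of all 11800 genes tested. A set of 6 genes was called in both lines in the same direction, which is 54.5% of either list: Rab6b, Rab39 and Rab3a were lower and Rab20, Rab32 and Rab5c higher. 0 were called in opposite directions, and over the 40 members tested in both lines the fold changes correlated with Pearson's r = 0.84, given as a description since genes are not independent replicates. The share called in both lines was not counted over all genes, so 54.5% is not shown to be particular to the Rab genes.

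Rab6b in this line was at 63.7, 80.7 and 104 untreated (lowest, median and highest of 6) and at 15.4, 20.1, 21, 16.5 and 9.31 at 6 h. The drop in every library gave −2.29 ± 0.25 (limma adjusted p = 1.13e-09). Rab39 was at 25.3, 31.6 and 35.8 untreated and at 9.36, 10.6, 12.6, 3 and 9.31 at 6 h (−1.80 ± 0.27). Rab3a was at 18.5, 22.6 and 26.1 and then at 7.16, 13.7, 10.5, 9.01 and 12.8, in this line without overlap (−1.05 ± 0.25, limma adjusted p = 0.000902). Rab20 rose from 34.1, 48 and 60.2 to 137, 186, 167, 173 and 116.4 (1.67 ± 0.23). Rab32 rose from 98.2, 121 and 150 to 339, 326, 331, 398 and 265 (1.42 ± 0.16). Rab5c, with the smallest change of the 6, went from 157, 201.2 and 224 to 276, 319, 310, 299 and 269 (0.60 ± 0.15, limma adjusted p = 0.00117), still with no overlap.

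The other 5 calls in this line were lower Rab40c (−0.70), a Rab with a domain of ubiquitin ligase adaptors, lower Rab35 (−0.52) of rapid recycling, higher Rab21 (0.81), an early endosome Rab of integrin traffic, higher Rab7b (1.94), a late endosome Rab, and higher Rab44 (2.04), a large Rab of blood cells that was at 0 in all 6 untreated libraries and at 1.65 to 5.28 at 6 h. All 11 calls were kept with each library left out and under all 7 alternatives. In the same comparison 12 of 14 microglia markers were lower, with sums of 20327 to 22849 against 43514 to 49099 untreated, and 4 of 8 monocyte markers higher, with sums of 78 to 753 against 8.13 to 40.6. Of 9 border macrophage markers 1 was higher and 3 lower, 1 of 9 neutrophil markers was higher, and the part of these genes in the Rab changes was not tested. Whether the change of Rab21, Rab7b or Rab44 differs between the lines was not tested.

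**Figure D2:**
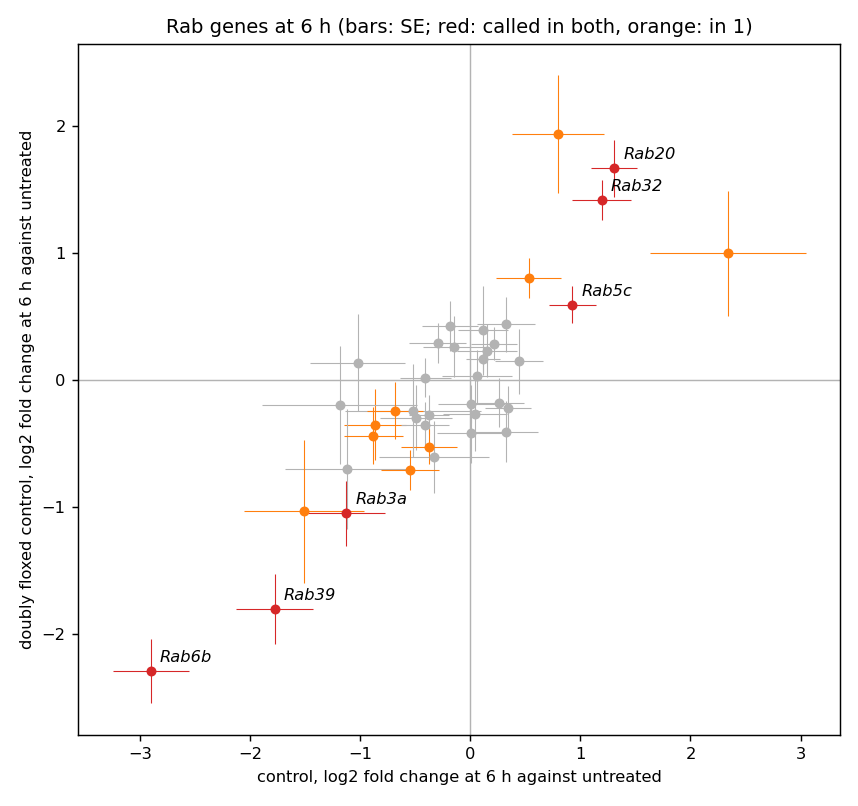
Log2 fold change at 6 h after LPS in the control line (x axis) against the doubly floxed control line (y axis) for the 40 Rab genes tested in both, with bars of 1 SE; red points passed the test in both lines. Rab6b and Rab39 lie at the lower left and Rab20 and Rab32 at the upper right.

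Later times were fitted with the same 6 untreated control libraries and are given side by side. With the experiment term, the comparisons at 6 and 24 h share the 3 untreated libraries of 1 experiment. That at 48 h rests on the other 3, which share an experiment with the 48 h libraries. At 24 h 11 of 40 members (27.5%) passed, beside 27.7% of all genes. At 48 h 8 of 40 (20%) passed, beside 17.6% of all genes. Within 1 experiment alone the counts were 6 at 24 h and 14 at 48 h. Microglia markers were lower at both times (12 of 14 at 24 h, and 6 of 14, with 1 higher, at 48 h). Of 6 monocyte markers 2 were higher and 1 lower at both times, with sums of 92.2 to 208 and 89.8 to 243 against 18 to 43.7 untreated. Border macrophage markers were higher for 2 of 6 at 24 h (sums of 35.1 to 113.4) and 3 of 6 at 48 h (91.8 to 141, against 13.7 to 65.2 untreated), and 2 of 7 neutrophil markers were lower at both times. The part of these genes in the Rab changes was not tested.

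Rab6b remained low at 24 and 48 h. Its values were 17.9, 9.68, 37 and 23.5 at 24 h, 35.9, 42.5 and 53.8 (lowest, median, highest) at 48 h, and 75.5, 79.9, 82.5 and 90.4 at day 7. All of these lay below the lowest untreated value of 110, and the log2 fold changes were −2.62, −1.43 and −0.60. Day 7 libraries came from an experiment of their own, so a slow return cannot be told apart from a difference between experiments. Rab39 was at 17.9, 10.9, 40.4 and 25.5 at 24 h and did not pass there. At 48 h it was at 10.5, 17.6 and 26 (−1.08 ± 0.32, limma adjusted p = 0.0199), and without untreated library 4 its adjusted p was 0.0763. Rab33b, a Golgi Rab that binds the autophagy protein Atg16l1, was lower at 24 h (−1.03) and 48 h (−0.98), and the calls ended without untreated library 1 (−0.89, limma adjusted p = 0.0865) and without untreated library 5 (−0.73, 0.186).

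Among the higher genes the time courses differed in shape. Rab20 was at 115, 147.7, 86.4 and 72.4 at 24 h (0.69) and at 59.9, 73.2 and 89.8 at 48 h, where it did not pass. Rab32 was at 141, 87.2, 318 and 296 at 24 h, so widely spread that it did not pass, and at 284, 316 and 340 at 48 h, above every untreated library (1.35 ± 0.25, limma adjusted p = 0.000295). Rab5c was at 280, 357 and 434 at 48 h (1.05 ± 0.19, limma adjusted p = 0.000377). Rab7b, a late endosome Rab that returns material to the Golgi and restrains Toll-like receptor signalling in macrophages, was low throughout, at 1.25 to 5.24 untreated, and rose to 16.4, 9.68, 19.1 and 25.5 at 24 h (2.08) and to 6.99 to 18.9 at 48 h (1.88). Rab34, a Golgi-associated Rab that positions lysosomes, was at 95.7, 130, 46 and 51 at 24 h (1.00 ± 0.26, limma adjusted p = 0.00555). Its libraries fell into a higher and a lower pair, all above the untreated range. The same pairs of libraries parted for Rab32, Rab20 and Rab39 at 24 h, so the split was not particular to Rab34.

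The remaining calls at 24 h were lower Rab5b (−0.96), Rab22a (−0.80), Rab9 (−0.71) and Rab11a (−0.69) and higher Rab3d (1.82) and Rab37 (2.30). At 48 h they were higher Rab24 (0.78), a Rab of autophagy, and Rab27a (0.72), which docks secretory lysosomes and exosome precursors. Only Rab6b and Rab7b at 24 h, and Rab6b, Rab7b, Rab32 and Rab5c at 48 h, were called in every repeat, that is with each library left out and under each of 8 alternatives. Without untreated library 1 the number of members called at 24 h was 7, and without untreated library 2 it was 6. At 48 h it was 5 without untreated library 4 and 4 without untreated library 5.

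In the doubly floxed control at 48 h, 14 of 43 members (32.6%) passed, beside 23.6% of all genes. Of these, 7 were also called in the control line at 48 h in the same direction (Rab6b, Rab39 and Rab33b lower, Rab32, Rab5c, Rab27a and Rab7b higher), which is 87.5% of the 8 calls of the control line and 50% of the 14 of the doubly floxed line. These shares were not counted over all genes. Rab6b was at 18, 21.4 and 46.4 (−1.76 ± 0.24) and Rab32 at 253, 277 and 345 (1.20 ± 0.15, limma adjusted p = 8.08e-08). Rab29, a relative of Rab32 that recruits the kinase Lrrk2, was higher (0.67), and so were Rab3d (1.35) and Rab13 (1.79), a Rab of traffic to the cell surface. Rab34 (−0.71), Rab40c (−0.45), Rab35 (−0.41) and Rab31 (−0.40) were lower. Of the 14, 3 (Rab6b, Rab32 and Rab13) were called in every repeat, and within 1 experiment alone 4 members passed. Rab13 was low, with a mean below 20 in both groups, and was too low to test in the control line. Here 8 of 14 microglia markers were lower and 1 higher, at sums of 28641 to 34338. Of 8 monocyte markers 3 were higher, at sums of 110.6 to 453 against 8.13 to 40.6 untreated, as were 2 of 9 neutrophil and 2 of 9 border macrophage markers, and their part in the Rab changes was not tested.

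**Figure D3:**
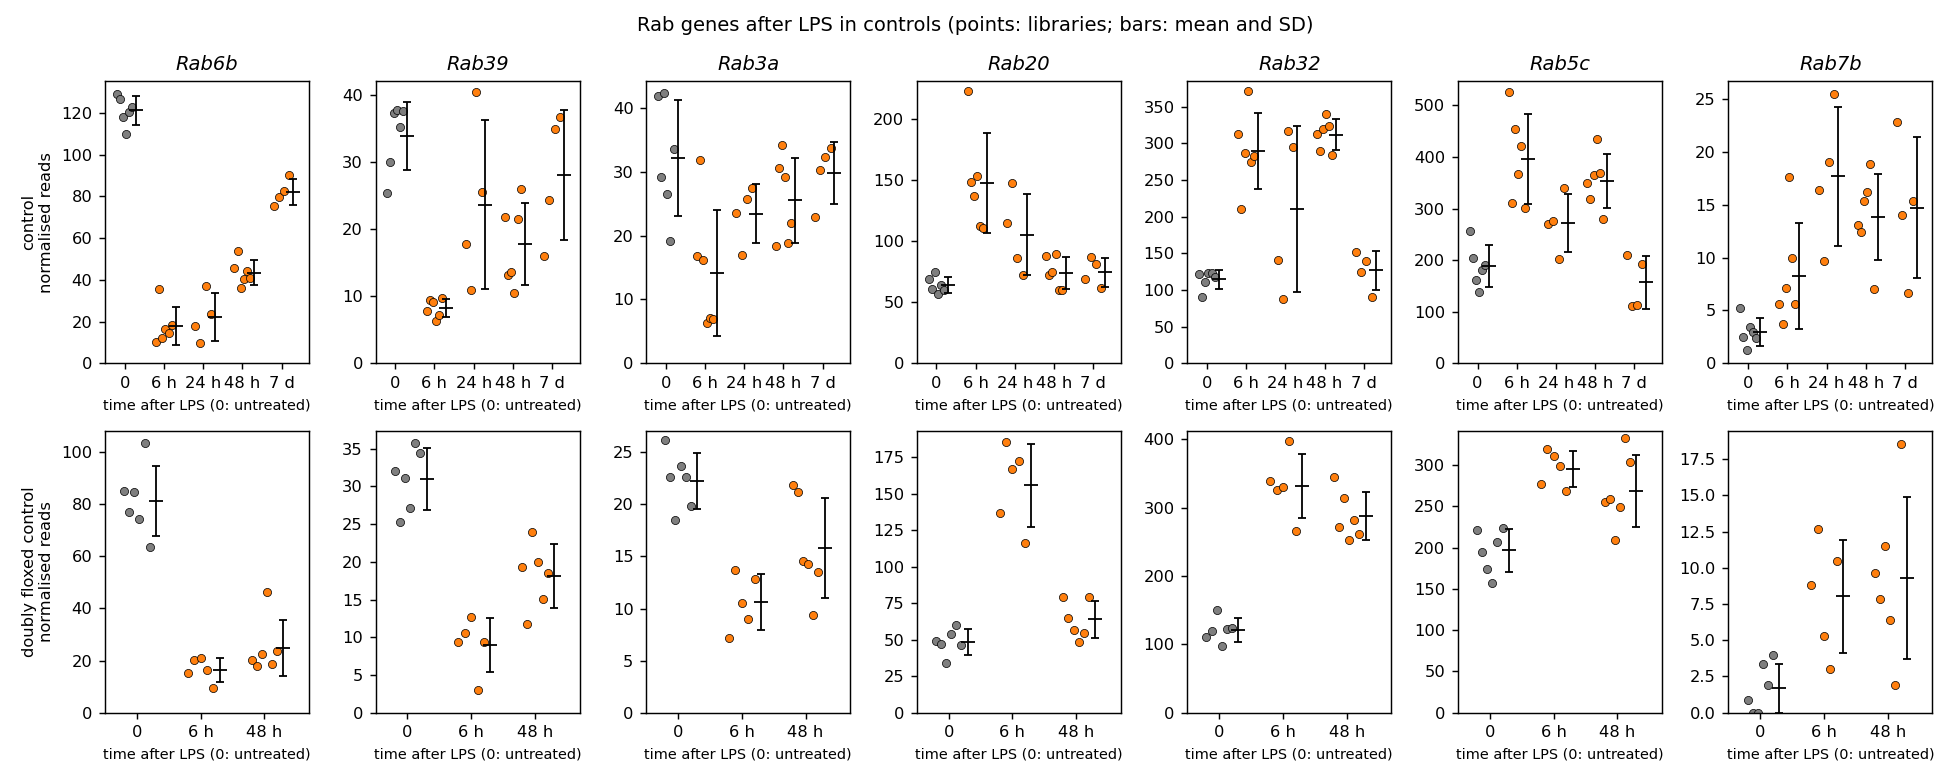
Normalised read count (y axis) of 7 Rab genes by time after LPS in the control line (upper row, untreated to day 7) and the doubly floxed control line (lower row, untreated to 48 h); points are libraries, and bars give the mean and SD. Rab6b falls to between 10.1 and 35.6 at 6 h in the control line and is at 75.5 to 90.4 at day 7, while Rab20 is highest at 6 h.

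Day 7 libraries came from an experiment of their own, so day and experiment cannot be told apart. In that fit 4 of 37 members (10.8%) passed, beside 4.73% of all 10143 genes. Rab6b was lower in all 4 libraries (−0.60 ± 0.13, limma adjusted p = 0.0147) and Rab8b, an exocytic Rab, was lower (−0.69). Rab3d, a granule Rab of secretory and blood cells, was at 2.49 to 4.41 untreated and at 24.4, 8.88, 16.5 and 12.3 at day 7 (2.03 ± 0.40, limma adjusted p = 0.00711), and Rab7b was at 22.9, 14.1, 6.6 and 15.3 (1.99). Rab7b lost its call without day 7 library 1 (1.75, adjusted p = 0.0804) and Rab8b without day 7 library 2 (−0.58, 0.1). The number of calls was 2 without day 7 library 2 and 2 without untreated library 3. Genes of other blood cells were higher in the same libraries: all 6 neutrophil, 6 monocyte, 6 border macrophage and 5 red cell markers tested passed upward. Their summed levels were 2612 to 19415 for neutrophil markers against 6.01 to 815 untreated, 256 to 990 against 18 to 43.7 for monocyte markers, 233 to 536 against 13.7 to 65.2 for border macrophage markers and 1598 to 3602 against 0 to 257 for red cell markers. 0 of 14 microglia markers passed, and the part of these other cells in the Rab3d and Rab7b values was not tested.

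The Il10ra mutant was read against the control line at each time. Il10ra itself, the receptor subunit that binds interleukin-10, was at 268 to 745 in control libraries and at 15.9 to 123.6 in mutant libraries, with no overlap at any time, as the labels state. Without LPS, 0 of 42 Rab genes passed (limma), 0 had an unadjusted p below 0.05 and edgeR called 0, while 0.00865% of all 11555 genes passed.

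At 6 h 3 of 42 members (7.14%) passed, beside 3.31% of all genes. All 3 were lower in the mutant, as were 1.42% of all genes. Rab32 was at 192, 258 and 338 in the control and at 77.5, 141.9 and 186 in the mutant, with no overlap (−0.97 ± 0.21, limma adjusted p = 0.00836). Its untreated values were alike, at 82.9, 110 and 113.7 in the control and 65.4, 113.6 and 121 in the mutant. The call of Rab32 was kept with each library left out but not within 1 experiment (−0.76, adjusted p = 0.624). Rab40c (−0.75, limma adjusted p = 0.0452) and Rab24 (−0.57, 0.0492) lost their calls in most repeats, and a single call was left when any one of control libraries 1, 3, 5 and 6 or mutant libraries 1, 5 and 6 was dropped.

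At 24 h Rab27a was the 1 member of 42 (2.38%) that passed, beside 3.5% of all genes. It was at 86.1, 47.6, 155 and 176 in the control and at 72.7, 40.9, 66.6, 67.5 and 52.3 in the mutant. The ranges overlapped (−0.98 ± 0.24, limma adjusted p = 0.0181), and without control library 4 the value was −0.83 with an adjusted p of 0.231. The count itself was set by single libraries at this time: leaving out control library 3, control library 4 or mutant library 5 gave 0, control library 1 gave 4, control library 2 gave 10 and mutant library 1 gave 11.

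At 48 h the mutant differed more widely. Of 42 members, 10 (23.8%) passed, beside 27.9% of all genes: Rab6b, Rab32, Rab24, Rab27a, Rab29 and Rab11a were lower and Rab31, Rab21, Rab34 and Rab37 higher. The experiment term makes this comparison rest on mutant libraries 1 to 3, which share an experiment with the control libraries, while libraries 4 and 5 came from another.

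Rab32 was at 261, 292 and 316 in the control (lowest, median, highest) and at 131, 97.1, 162, 124.3 and 128.1 in the 5 mutant libraries. All 5 were below every control library (−1.17 ± 0.26, limma adjusted p = 0.000561). Rab24 was at 189, 214 and 246 in the control and at 141, 73.1, 113.9, 66.6 and 53.1 in the mutant (−1.03 ± 0.22, limma adjusted p = 0.000306). Rab27a was at 112.8, 146.1 and 170 in the control and at 128.3, 34.7, 69.8, 36.4 and 44.7 in the mutant. Library 1 of the mutant lay within the control range, and the value of −1.02 ± 0.25 (limma adjusted p = 0.00143) became −0.54 with an adjusted p of 0.134 without mutant library 2. Rab6b was at 33.1, 39.2 and 49.6 in the control and lower still, at 24.4, 11.2, 10.4, 11.5 and 4.55, in the mutant (−1.42 ± 0.46, limma adjusted p = 0.0154, and 0.0973 at −1.21 without mutant library 3). Rab29 (−0.75) and Rab11a (−0.66), the main Rab of recycling endosomes, also lost their calls without mutant library 2, at adjusted p = 0.164 and 0.053.

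Rab21 was the opposite case. It was at 18.1, 32.2 and 39.6 in the control and at 61.1, 64, 56.2, 68.3 and 88.7 in the mutant (1.00 ± 0.23, limma adjusted p = 0.000844). Rab34 was at 24.4, 31.4 and 36.6 in the control and at 55, 79, 61, 42.6 and 61.4 in the mutant (1.05 ± 0.22, limma adjusted p = 0.000294). For neither gene did the ranges overlap, and untreated they did not stand apart: Rab21 was at 20.2 to 33.2 in control and 18.8 to 37.8 in mutant libraries, and Rab34 at 26 to 37.9 and 27.4 to 38.1. At 6 h Rab34 was at 34.2 to 47.1 in control and 37.6 to 63.9 in mutant libraries and did not pass. Rab31, which carries cargo between the trans-Golgi network and endosomes, was at 42.2, 66.3 and 73.7 against 90.6, 145, 125, 108.3 and 97.8 (0.96 ± 0.24, limma adjusted p = 0.00195). The calls of 6 (Rab21, Rab24, Rab31, Rab32, Rab34 and the low-level Rab37, 2.15) were kept with each library left out, and all 10 under each of 7 alternatives. Mutant libraries that share no experiment with the control do not enter these fold changes, so leaving those out tests little.

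The change from untreated to 48 h was then compared between genotypes in 1 interaction term. Of 42 members, 7 (16.7%) passed, beside 16.4% of all genes. Rab32 (−1.19 ± 0.33, limma adjusted p = 0.00886), Rab27a (−1.003, 0.0204), Rab24 (−0.88, 0.0213) and Rab11a (−0.64, 0.0338) changed less upward or more downward in the mutant, and Rab34 (1.14, 0.00319), Rab21 (1.13, 0.00471) and Rab31 (1.02, 0.0145) more upward. Without mutant library 2 at 48 h, 2 of the 7 were kept, Rab21 (1.09, adjusted p = 0.0229) and Rab34 (0.99, 0.0304), while Rab32 was at −0.99 with 0.0704.

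**Figure D4:**
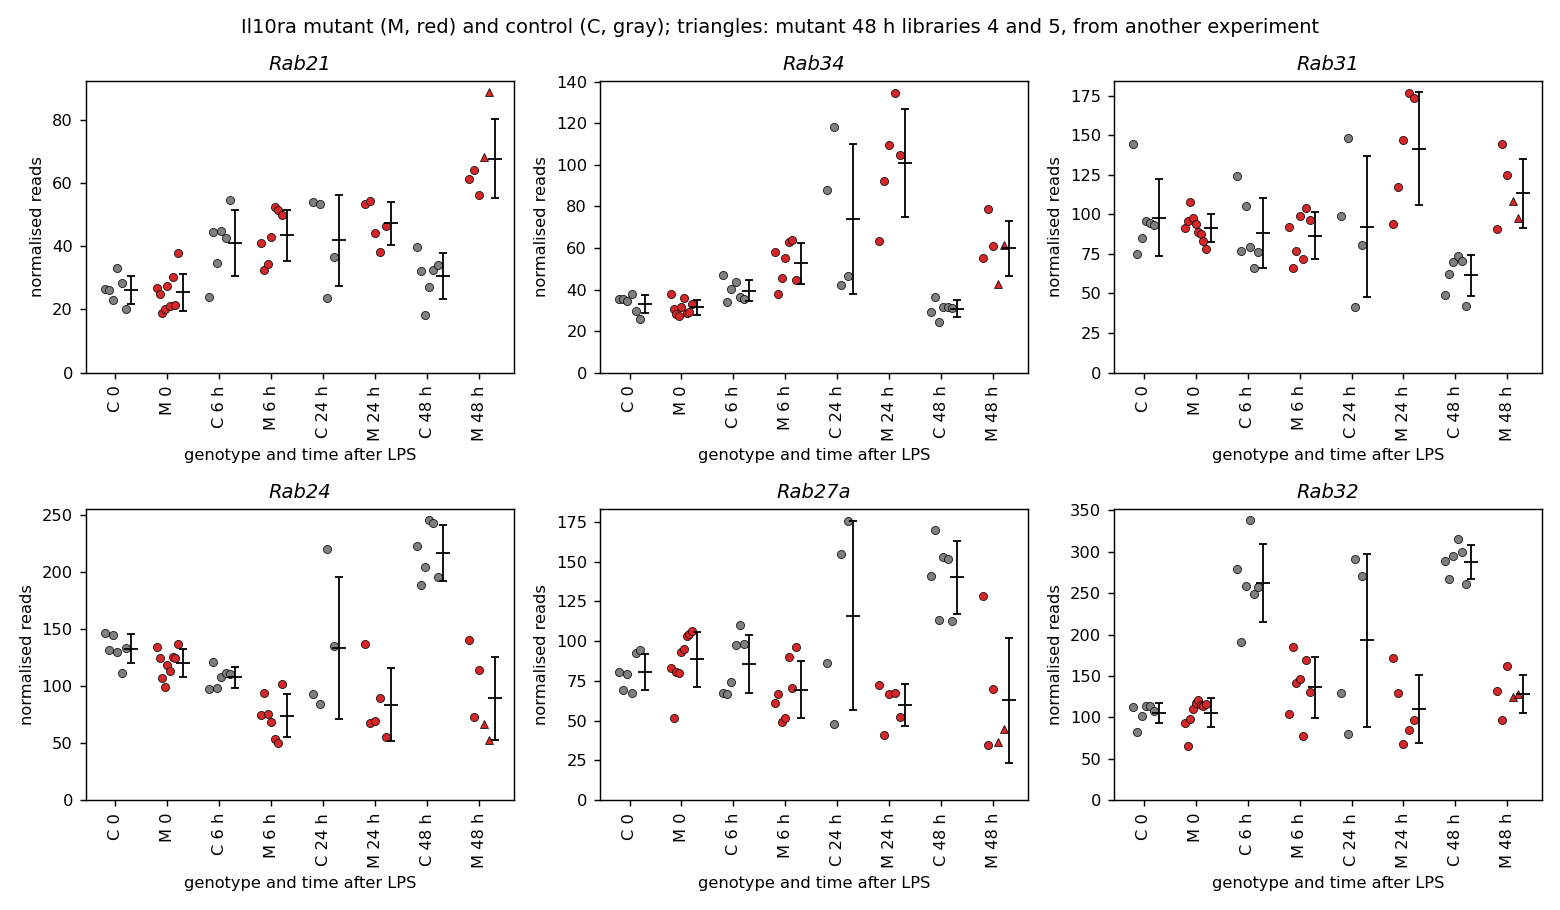
Normalised read count (y axis) of 6 Rab genes in control (C, gray) and Il10ra mutant (M, red) libraries by time after LPS; triangles are mutant libraries 4 and 5 at 48 h, from another experiment, and bars give the mean and SD. For Rab21 and Rab34 at 48 h all 5 mutant libraries lie above the control range, and Rab32 is at 97.1 to 162 in the mutant against 261 to 316 in the control at 48 h.

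Other genes moved in the same 48 h libraries. The summed level of 14 microglia markers was 10680 to 18713 in the mutant against 27488 to 34554 in the control, and 13 of the 14 were lower. Neutrophil marker sums were 28.3 to 1310 against 26.6 to 241, with 3 of 9 higher. Monocyte marker sums were 52.8 to 218 against 82.5 to 225, with 2 of 7 higher. Border macrophage marker sums were 31.5 to 58.1 against 84.4 to 125, with 1 of 6 lower. Tmem119 was at 638 to 1052 and P2ry12 at 274 to 619 in the mutant, so both microglial genes were still present. The part of these shifts in the Rab differences was not tested.

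The comparison of the Il10ra mutant with the doubly floxed control at 48 h rests on mutant libraries 4 and 5 and on other control libraries, and so repeats the contrast with different libraries. Of 43 members, 15 (34.9%) passed, beside 33.9% of all genes. A set of 8 was called in both comparisons with the same sign, 80% of the 10 calls above and 53.3% of these 15: Rab32, Rab24, Rab27a, Rab6b and Rab11a lower and Rab21, Rab34 and Rab31 higher. The line used as control differs between them, in that the doubly floxed line carries floxed Tnf as well. The share called in both comparisons was not counted over all genes.

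Rab20 gave the largest difference of these. It was at 48.5, 61 and 79.2 in the doubly floxed control and at 57.5, 178, 81.5, 366 and 404 in the mutant libraries 1 to 5 (2.603 ± 0.31, limma adjusted p = 1.68e-08). Libraries 4 and 5, on which the value rests, stood apart from libraries 1 to 3, and against the first control line, where libraries 1 to 3 count, Rab20 was not called (0.41 ± 0.27, adjusted p = 0.263). Rab21 was at 25, 26.8 and 30.1 in the doubly floxed control and at 63.9, 67.3, 58.8, 71.3 and 92.7 in the mutant (1.62 ± 0.21, limma adjusted p = 1.38e-07). Rab34 was at 15.1, 18.3 and 25.3 against 57.5, 83.1, 63.8, 44.4 and 64.2 (1.42 ± 0.30). All mutant libraries of both genes lay above the control range.

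On the lower side, Rab27a was at 123, 145 and 190 in the doubly floxed control and at 134.1, 36.5, 73.1, 37.9 and 46.8 in the mutant (−1.74 ± 0.27, limma adjusted p = 2.25e-06). Rab24 was at 140, 169 and 179 against 147, 76.9, 119, 69.4 and 55.5 (−1.34 ± 0.25). Mutant library 1 lay inside the control range for both of these genes, and the other 4 lay below it. Rab32 was at 253, 277 and 345 against 137, 102.1, 170, 130 and 133.9 (−1.20 ± 0.22), with no overlap. Rab28, a Rab known from cilia of photoreceptors, was at 9.41, 19.9 and 25.6 against 28.7, 37, 32.8, 39.8 and 41.2 (1.03 ± 0.32, limma adjusted p = 0.0125, and 0.106 without mutant library 5). Rab1b (0.78), Rab12 (0.79), Rab2a (0.60) and Rab31 (0.57) were higher and the low-level Rab13 (−1.69), Rab6b (−1.57), Rab39 (−0.99) and Rab11a (−0.80) lower. Of the 15, 6 (Rab20, Rab21, Rab24, Rab27a, Rab32 and Rab34) were kept in every repeat, and without mutant library 5 the count was 6. Mutant libraries that share no experiment with the doubly floxed control do not enter these fold changes, so leaving those out tests little. In this comparison 12 of 14 microglia markers were lower in the mutant, at sums of 11229 to 19557 against 28641 to 34338. Lower too were 2 of 9 border macrophage markers and 1 of 9 neutrophil markers, while 1 of 8 monocyte markers was higher and 1 lower, and the part of these genes in the Rab differences was not tested.

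The double mutant joins the CX3CR1-driven Cre with floxed Il10ra and floxed Tnf, the gene of tumour necrosis factor. Il10ra was at 237 to 533 in the doubly floxed control and at 7.14 to 76.4 in the double mutant. Tnf was at 172 to 603 against 1.43 to 31.1 at 6 h and at 71.5 to 246 against 4.39 to 9.27 at 48 h, and overlapped only in untreated libraries, where both were low. Against its own control the double mutant showed no called Rab gene: 0 of 43 untreated, at 6 h and at 48 h by limma, beside 0.0254%, 0.0678% and 0.0169% of all genes. At an unadjusted p below 0.05 the counts were 3, 5 and 1, and edgeR called 0 at each time. This count does not show that the groups are alike. At 48 h the double mutant stood at −0.05 ± 0.24 (log2 fold change ± SE) for Rab20, 0.33 ± 0.17 for Rab21, −0.19 ± 0.23 for Rab34, 0.15 ± 0.19 for Rab24, 0.04 ± 0.21 for Rab27a, −0.26 ± 0.17 for Rab32 and 0.26 ± 0.27 for Rab6b. The largest difference of any member in size was 0.75 untreated, 0.69 at 6 h, where Rab8b had it, and 0.69 at 48 h. Rab32 at 6 h (−0.49 ± 0.16) had an unadjusted p of 0.00407 and an adjusted p of 0.199 in limma.

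Against the Il10ra mutant at 48 h, the double mutant differed in 16 of 43 Rab genes (37.2%), beside 28.6% of all genes. This comparison and that of the Il10ra mutant with the doubly floxed control use the same Il10ra mutant libraries, so no overlap between them is counted. Rab20 was at 86.1, 42.4, 55.6 and 67.7 in the double mutant and at 57.5, 178, 81.5, 366 and 404 in Il10ra mutant libraries 1 to 5 (−2.65 ± 0.33, limma adjusted p = 7.11e-08). The ranges overlapped, since libraries 1 and 3 lay within the double mutant's, and the value rests on libraries 4 and 5. Rab34 was at 18.1, 17.9, 10.2 and 22.6 (−1.61 ± 0.32) and Rab21 at 41.5, 29.1, 33.6 and 35 (−1.29 ± 0.23). Every double mutant library of Rab34 and Rab21 lay below all 5 Il10ra mutant libraries. Rab27a was at 163, 144.4, 140 and 185 (1.78 ± 0.28), Rab24 at 191, 155, 180 and 212 (1.48 ± 0.27) and Rab32 at 309, 266, 162 and 217 (0.95 ± 0.23, limma adjusted p = 0.00175). For Rab27a and Rab24 all 4 double mutant libraries were above all 5 of the Il10ra mutant, and for Rab32 the ranges overlapped, with 162 in double mutant library 3 and 170 in Il10ra mutant library 3. Rab6b was at 31.4, 34.4, 36.6 and 14.7 against 25.5, 11.8, 10.9, 12 and 4.75, with overlap (1.82 ± 0.37, limma adjusted p = 0.000223).

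Rab8b (−1.17), Rab31 (−0.73), Rab1b (−0.67) and Rab2a (−0.64) were also lower in the double mutant. The low-level Rab13 (1.82), Rab39 (1.13), Rab29 (1.01), Rab40c (0.80) and Rab11a (0.79) were higher. By compartment, 3 of 8 early endosome Rabs were lower and 1 higher, and 3 of 10 endoplasmic reticulum and Golgi Rabs lower and 1 higher. Of 7 late endosome and lysosome-related Rabs 3 were higher and 0 lower, and of 10 recycling Rabs 2 were higher and 1 lower. Of 5 secretory Rabs 1 was higher, as was 1 of 3 others, beside 28.6% of all genes called in either direction. Rab6b (1.23, limma adjusted p = 0.06) and Rab8b (−0.78, 0.296) lost their calls without Il10ra mutant library 5, and the count without that library was 7. With each library left out, 6 were kept: Rab20, Rab21, Rab24, Rab27a, Rab32 and Rab34. Il10ra mutant libraries that share no experiment with the double mutant do not enter these fold changes, so leaving those out tests little. Microglia markers differed here too, with 11 of 14 higher in the double mutant, at sums of 25178 to 31683 against 11229 to 19557, and their part in the Rab differences was not tested.

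**Figure D5:**
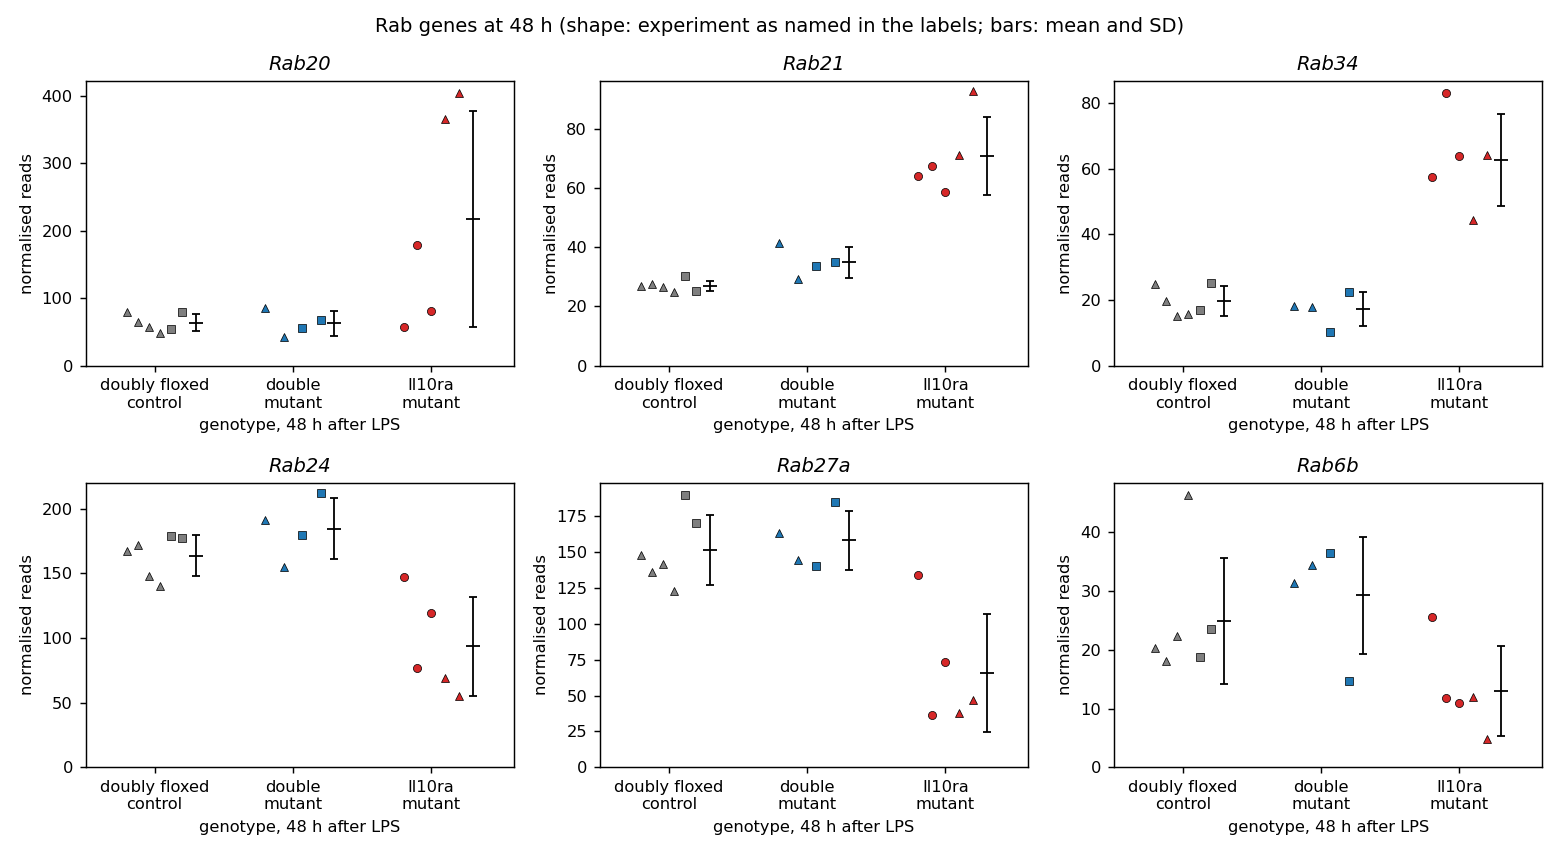
Normalised read count (y axis) of 6 Rab genes at 48 h after LPS in the doubly floxed control, the Il10ra mutant and the double mutant; points are libraries, their shape gives the experiment, and bars give the mean and SD. For Rab21 and Rab34 the Il10ra mutant libraries lie above both other groups, and for Rab20 the 2 libraries that share an experiment with the other groups are at 366 and 404 and the other 3 at 57.5, 178 and 81.5.

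Genes that regulate Rab proteins were taken from 4 lists, for prenylation and the membrane cycle, exchange factors, GTPase-activating proteins and effectors. At 6 h in the control line 2 of 15, 6 of 44, 4 of 31 and 3 of 46 rose, and 7, 10, 5 and 14 fell, where 40.2% of all genes were called in either direction. In the doubly floxed line 2 of 15, 6 of 45, 6 of 32 and 5 of 46 rose, and 7, 12, 6 and 14 fell, beside 42.7% of all genes. Called in both lines were 2, 5, 3 and 3 that rose and 6, 8, 4 and 11 that fell, and the share of all genes called in both was not counted. Rabggtb, the catalytic subunit of the enzyme that prenylates Rab proteins, rose by log2 1.04 in the control line and 0.93 in the doubly floxed line. The exchange factor St5 rose (2.07 and 1.17), as did the Rab11-binding Tbc1d14 (1.22 and 0.96) and the Golgi stacking protein Gorasp2 (1.34 and 1.04). Appl2, a Rab5 effector that tethers signalling endosomes, fell in both (−2.31 and −1.97), as did the GTPase-activating proteins Tbc1d16 (−1.94 and −1.52) and Tbc1d17 (−1.40 and −1.20) and the Rab8 exchange factor Rab3ip (−1.83 and −1.54). The Rab3 and Rab27 exchange factor Madd fell by 2.03 in the control line. These values were kept with each library left out.

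At 48 h the Il10ra mutant against the control had 3 of 15, 2 of 46, 2 of 33 and 4 of 46 of these genes higher and 3, 11, 5 and 11 lower, beside 27.9% of all genes called in either direction. Against the doubly floxed control 1 of 15, 8 of 45, 1 of 32 and 7 of 46 were higher and 3, 8, 6 and 11 lower, beside 33.9% of all genes. In both comparisons 0, 1, 0 and 2 were higher and 2, 7, 3 and 7 lower, and the share of all genes called in both was not counted. Of the exchange factors, Madd was at −1.73 against the control, and Rab3il1 at −1.32 against the control and −1.72 against the doubly floxed control. The Yip1 family gene Yipf2 (−1.66 and −1.84) and Tbc1d16 (−1.07 and −1.37) were lower in both. Tbc1d5, which acts on Rab7 with the retromer coat, was at −1.38 against the control, where the call was lost with 1 library left out (highest adjusted p = 0.125), and at −2.41 against the doubly floxed control. The effectors Eea1, which tethers early endosomes (1.27 and 1.14), and Rilpl2 (1.17 and 1.88) were higher in both, with highest limma adjusted p of 0.0596 and 0.0927 against the control with 1 library left out. In the double mutant against the Il10ra mutant, 4 of 15, 7 of 45, 4 of 32 and 12 of 46 were higher and 1, 6, 1 and 6 lower, beside 28.6% of all genes, among them Tbc1d5 (2.56), Rinl (1.71), Rab3il1 (1.62), Madd (1.54) and Rilpl2 (−1.95). No gene of the 4 lists passed between the double mutant and its own control at any time, or between untreated Il10ra mutant and control, comparisons in which 0.00865 to 0.0678% of all genes passed.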

How the data were processed

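The members, gene lists and comparisons were chosen with earlier results of these data known. The authors deposited 4 tables of gene-level signal, which are read counts divided by a size factor for each library (26 libraries in the control table, 48 in the mutant table, 38 in the double-mutant table and 19 in the table with C57BL/6). Reads were aligned to mm10, per the submitters' processing notes; the sources used here do not state the aligner, the counter, its use of strand or the size factor method. The deposited values step in units of 1 read, and 100% came out as whole reads within 0.01 when divided by that unit. Gene rows that a spreadsheet had turned into dates (17 to 19 in each table) kept their values but have no symbol. Depth ranged from 540642 to 2489084 reads in genes per library.

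For each table, limma 3.58.1 in R 4.3.3 was fitted with a trend to log2(value + 1) over all genes that reached 5 in a number of libraries no smaller than the smallest group, with a mean for each group and the experiment that the labels name as an additive term. Fold changes are on that scale, which understates changes of low genes. Day 7 was fitted with untreated controls only and no term. The 16 comparisons used a Benjamini-Hochberg adjusted p below 0.05 over all genes of the table. The alternatives were a pseudocount of 4, no filter, quantile normalization, edgeR 4.0.16 on the recovered reads, no experiment term, 1 experiment only, a replicate block, each library left out, and, added after seeing the data, leaving out libraries with under 0.3% mitochondrial reads. The fit was tested first on data simulated without an experiment effect, with changes in genes of mean 20 or more. Changes of 1 on the log2 scale were recovered for 44% of genes for control at 6 h. The share was 55% for the Il10ra mutant against control at 48 h and 88% for the doubly floxed control at 6 h. Changes of 2 were recovered for 100%, and 1.27 to 4.64% of calls were false. Members that did not pass may therefore have changed.

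Any called member could be named, and values by library were given for members whose log2 fold change reached 1 in size and whose mean reached 20 in either group, at most 10 in a comparison, and for these members in all other groups. Rab3d, Rab7b, Rab37 and Rab44, near the floor, were given with values after these had been seen. From each list of Rab regulators at most 3 called genes per direction and comparison were named. Markers of 10 cell types were counted. The library of 1 sample at 48 h whose labels disagree on genotype was left out, and 1 untreated library of the double mutant, marked as a mistake in its column name, was kept as labelled. The ATAC peak lists (HOMER, mm9) were not used here. Promoters came from RefSeq (GRCm38.p6).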

Additional observations from a re-analysis of the deposited data

Results flagged for a closer look

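In 66 groups of 4 to 10 libraries tested for 1 library far from the others, 3 values stood apart, and chance gives about 1 in 20 such groups. Rab6b was at 35.6 in control library 2 at 6 h, where the others were at 10.1 to 18.2. Rab6b was at 46.4 in doubly floxed control library 5 at 48 h, with the others at 18 to 23.6. Rab29 was at 29.8 in Il10ra mutant library 1 at 48 h in the double-mutant table, with the others at 18.5 to 21.3.

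The change from untreated to 48 h differed between the Il10ra mutant and the control, by an interaction term in limma, for Rab32 (−1.19), Rab27a (−1.003), Rab24 (−0.88), Rab11a (−0.64), Rab31 (1.02), Rab21 (1.13) and Rab34 (1.14), all on the log2 scale.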

How the results depend on the processing

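Among values of single named members, 405 repeats kept direction and side of the threshold, 17 kept the direction but lost the call, and 0 reversed. Counts of called members stayed within 1.5 times in 272 repeats and moved further in 39. Within 1 experiment the counts were 6 for control at 6 h, 6 at 24 h and 14 at 48 h, 0 for the Il10ra mutant at 6 h and 0 at 24 h, and 4 for the doubly floxed control at 48 h. With the replicate block they were 17, 4 and 13 for control at 6, 24 and 48 h, 2 at day 7, and 0 for the Il10ra mutant at 6 h and at 24 h. Same-numbered libraries did not all deviate together in any comparison (correlations from −0.327 to 0.416, with 0 comparisons in which every pair was above 0.1). In no comparison did every library correlate best with its own number. The main fit therefore did not pair libraries by number, but this check cannot exclude that some were paired. In the block Rab20 was at −1.11 (limma adjusted p = 0.0743) in the double mutant against the Il10ra mutant. Leaving out libraries of low mitochondrial share, a choice made after seeing the data, gave 6 at 24 h. For the Il10ra mutant at 6 h quantile normalization, edgeR and the fit without an experiment term each gave 1, and at 24 h edgeR gave 2. Quantile normalization also moved the share of higher genes among all called from 57.1% to 44.8% for the Il10ra mutant at 6 h, from 58.3% to 47.5% for the doubly floxed control at 48 h and from 37.5% to 16.7% of 8 and 6 genes for the double mutant at 6 h. With each library left out in turn the counts ranged from 6 to 13 for control at 24 h, 4 to 8 at 48 h and 2 to 6 at day 7, from 1 to 3 and from 0 to 11 for the Il10ra mutant at 6 and 24 h, from 2 to 9 for the interaction, from 6 to 16 for the Il10ra mutant against the doubly floxed control and from 7 to 15 for the double mutant against the Il10ra mutant. No fit within 1 experiment or without the term exists for day 7. At this depth genes near the floor, such as Rab37, Rab44, Rab3d, Rab7b and Rab13, rest on few reads.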

Other observations

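Untreated microglia of C57BL/6 mice (4 libraries) came from an experiment of their own, so strain and experiment cannot be told apart and no test was made. Beside the 6 untreated IL10Rafl/fl libraries of the same table, Rab6b was at 73, 69.4, 48.4 and 40.6 against 94.3 to 110, and Rab20 at 114.3, 93.7, 115.7 and 106.4 against 48.6 to 64.3. Rab5c was at 254, 240, 273 and 262 against 119 to 218. For these 3 genes all C57BL/6 libraries lay outside the control range. Rab32, at 67.2, 80.6, 72.6 and 61.6 against 77.6 to 106.1, overlapped it.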
